A study of Sus scrofa with 4 samples.

Results

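The genes described here carry glucose into the cell and break it down: the carrier SLC2A2, the enzymes of glycolysis, the lactate step and its carriers, the pyruvate dehydrogenase gate to the mitochondrion, and the pentose phosphate branch. They were chosen as a list of 34 symbols, matched by name to the genes of the files, and 30 of the 34 were found among 21280 genes. No row carried the symbols SLC2A1, SLC2A3, PKM and RPE, and of these SLC2A1, SLC2A3 and RPE were not analysed here. A row without a symbol is paired with PKM by a reference name table and is given beside the members, not among them. The values are counts of unique molecular identifiers (UMIs, molecules counted once by their barcode) from droplet-based single-cell RNA sequencing of pigs. The 4 groups were embryos at day 12 and at day 9 of pregnancy and endometrium, the lining of the uterus, at day 12 and at day 9, with 1 library each. Breed, the number of animals and pooling are not given in the sources used here, no treatment or genotype is named, and embryo and endometrium were dissociated with different enzymes. Each group was a single library, so the differences between days lack replicates and have no test.

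Glucose enters a cell through facilitative carriers and is trapped by hexokinase as glucose 6-phosphate. From there it either runs down glycolysis through phosphofructokinase, the committed and regulated step, to pyruvate, or enters the pentose phosphate branch, which makes NADPH and ribose for fatty acid and nucleotide synthesis. Pyruvate is reduced to lactate, which leaves or enters cells through the monocarboxylate carriers SLC16A1 and SLC16A3, or passes through pyruvate dehydrogenase, which the kinase PDK1 switches off. In the pig, days 9 to 12 span the change of the conceptus from a sphere to a long filament inside the uterus. Its outer layers are the trophectoderm, which meets the uterine epithelium, and the hypoblast beneath it, and the endometrial epithelium secretes the fluid that feeds both.

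The embryo libraries summed to 66992264 UMIs on day 12 and 109449139 on day 9, those of the endometrium to 27589239 and 27250593. Filters kept 6671 embryo cells on day 12 (median 9297 UMIs), 7000 on day 9 (11884), and 8962 (2233) and 7984 (2639) endometrial cells. Between 54 and 105 barcodes of kept cells were shared between any pair of libraries. Of all deposited barcodes of the other libraries, 76.4% (day 12 embryo), 98.9% (day 12 endometrium) and 99.1% (day 9 endometrium) also carried UMIs in the day 9 embryo, whose file alone holds low barcodes. Barcodes of under 100 UMIs in that library, taken here as free RNA, held the members at 4693 counts per 1000000 UMIs (CPM), against 5303 CPM over its cells. SLC16A1 was lower in them, at 211 against 309 CPM. PFKP and PFKFB3 were higher, at 5.94 against 0.230 CPM and 8.91 against 0.812 CPM, on 8 and 12 UMIs. Where these molecules came from was not tested, so the values may not be those of free embryo RNA alone. Cells were clustered with the members left out, and clusters were named from marker genes, so a name such as trophectoderm-like stands for high markers of that class. Levels below are CPM of the summed UMIs of a class in 1 library, and intervals are 95% and cover counting error only. Fewer cells of a type within a class and less RNA per cell cannot be told apart in these sums.

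The pathway took a larger share of the RNA in the embryo than in the endometrium. The summed members made up 0.651% of UMIs in trophectoderm-like cells on day 12 and 0.504% on day 9, and 0.593% and 0.530% in hypoblast-like cells on the same days. In the day 12 embryo, mesoderm-like cells (199 cells) stood at 0.692% and a cluster of 141 cells at 0.797%. That cluster had all 4 detected epiblast markers high and kept no name, because EOMES, listed as a mesoderm marker, was among its 10 leading genes. In the endometrium the sums were 0.170% on day 12 and 0.238% on day 9 in stromal-like cells, and 0.280% and 0.241% in the epithelial clusters. T or NK cell-like cells had the highest share among the endometrial classes compared, with 0.428% on day 12 and 0.327% on day 9, and B or plasma cell-like cells the lowest, with 0.060% and 0.076%. A day 12 cluster of 358 cells, with KLRB1 and KLRK1 among its leading genes, was closest to the T or NK class. It was mixed, kept no name and is outside that class, and its sum was 0.221%. The dissociation differed between the tissues, so tissue and preparation cannot be told apart.

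**Figure D1:**
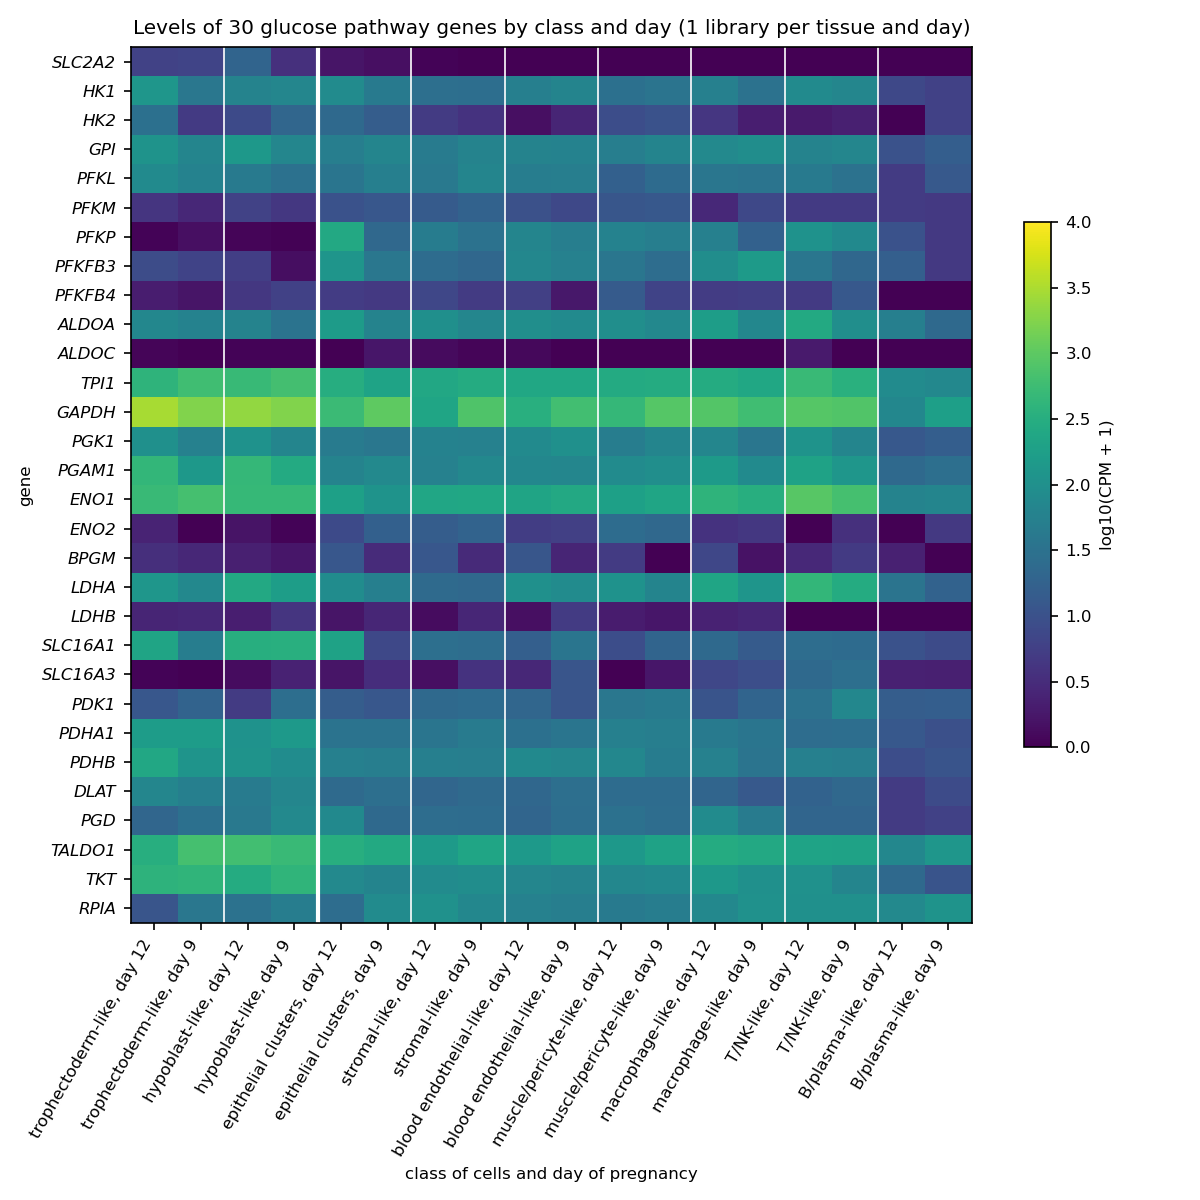
Level of each of the 30 genes (rows) in each class of cells (columns, day 12 left of day 9), as log10 of CPM plus 1, with 1 library per tissue and day. SLC2A2 is near 0 outside the embryo, and SLC16A1 is bright in day 12 epithelial clusters and not in day 9 ones.

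Between days, a gene was compared where it reached 10 CPM on either day, by the log2 ratio of CPM with 1 CPM added, and was called at 2-fold or more. In hypoblast-like cells (2538 cells on day 12, 5868 on day 9) 21 members were compared. Of these, 1 was called higher, against 11% of all genes, and 2 were called lower, against 8.97% of all genes. The median log2 ratio of the members was 0.02, against -0.18 over all genes compared. In trophectoderm-like cells (3250 cells on day 12, 653 on day 9) 20 members were compared. There 5 were called higher, against 27.8% of all genes, and 2 lower, against 11.2% of all genes, with a median of 0.43 for the members and 0.20 for all genes. Over all embryo cells, named or not, 1 of 21 members was called higher, SLC2A2 (11.6% of all genes), and 3 lower, PDK1, PGD and RPIA (7.77% of all genes). Hypoblast-like cells made up 38.0% of embryo cells on day 12 and 83.8% on day 9, and trophectoderm-like cells 48.7% and 9.33%. The part of this changed mix in the ratios over all embryo cells was not tested.

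Scaling mattered in the embryo. The median log2 ratio of genes that reached 50 CPM on each day was -0.16 in hypoblast-like and -0.29 in trophectoderm-like cells. Relative to it, 3 members were called higher and 2 lower in hypoblast-like cells, and 9 higher and 1 lower in trophectoderm-like cells. The share of higher calls among all calls over all genes moved to 69.4%, against 55.1% on the CPM scale, in hypoblast-like cells to 85.5%, against 71.3%, in trophectoderm-like cells, and to 73.0%, against 59.9%, over all embryo cells, where 4 members were then called higher and 2 lower. The members added by this scaling were GPI and ALDOA in hypoblast-like cells and GPI, GAPDH, PGK1 and LDHA in trophectoderm-like cells.

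**Figure D2:**
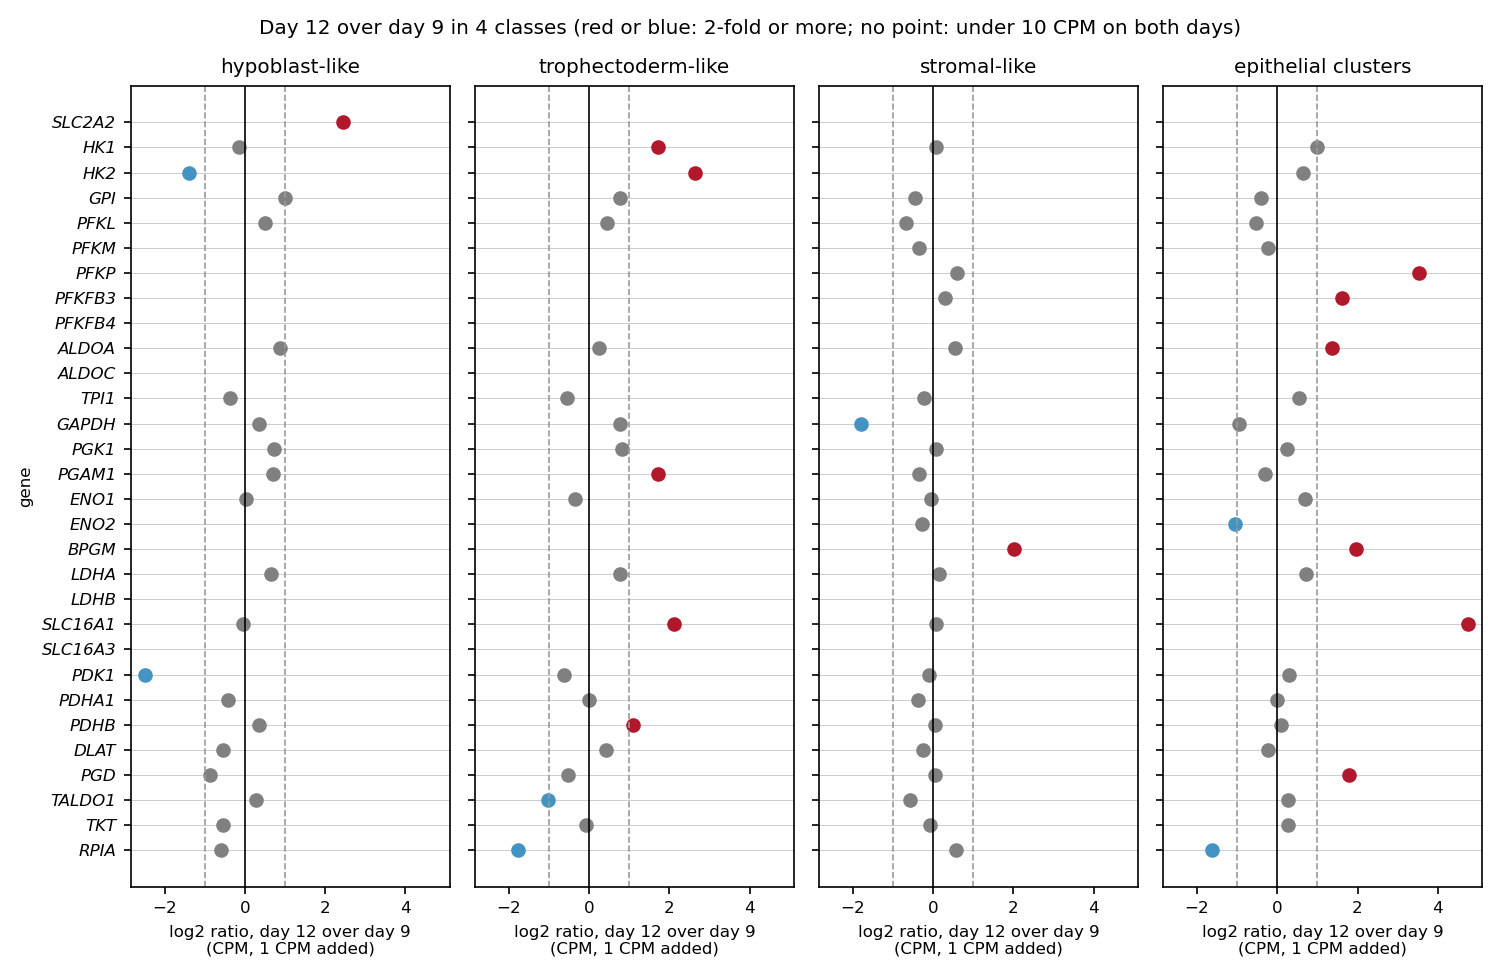
Log2 ratio of day 12 over day 9 of each member in 4 classes, on the CPM scale with 1 CPM added. Dashed lines mark 2-fold, red points are 2-fold or more higher and blue points 2-fold or more lower on day 12, grey points are under 2-fold, and a gene with no point stayed under 10 CPM on both days. HK2 is red in trophectoderm-like and blue in hypoblast-like cells, and SLC16A1 has the largest ratio drawn, 4.74 in the epithelial clusters.

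At the entry step, SLC2A2, the low-affinity glucose carrier known from liver, intestine and pancreatic islets, was higher on day 12 in the hypoblast. Its level in hypoblast-like cells was 18.6 CPM on day 12 (539 UMIs), against 2.59 CPM on day 9 (194 UMIs), a 7.20-fold difference (6.10 to 8.53, log2 2.45). It was 17.0 to 18.8 CPM in each of the 3 hypoblast-like clusters of day 12 and 2.05 to 3.69 CPM in the 6 of day 9. Clusters of 1 library are not replicates of a day, here and in the cluster ranges below. How often the clusters of other genes overlap between days is not given. In trophectoderm-like cells SLC2A2 stood at 5.15 CPM on day 12, against 5.63 CPM on day 9, under the minimum of 10. Thinned to 2000 UMIs per cell, 3.96% of hypoblast-like cells had an SLC2A2 UMI on day 12 and 0.665% on day 9. The shares in trophectoderm-like cells were 0.962% and 1.38%, and without thinning they were 17.5% and 3.20% in hypoblast-like and 4.00% and 3.68% in trophectoderm-like cells (median depths 11130 and 12541 UMIs against 8216 and 5703 UMIs). Free RNA of the day 9 embryo held SLC2A2 at 3.71 CPM (5 UMIs), between the levels of its hypoblast-like and trophectoderm-like cells. The part of free RNA in the day 9 shares was not tested. The gene spans 109592595 to 109614105 on chromosome 13 (RefSeq, Sscrofa11.1).

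At the trapping step, hexokinase 2, the inducible isoform known from muscle and from growing tissues, moved in opposite directions in the layers. HK2 was at 29.1 CPM on day 12 (826 UMIs), against 3.83 CPM on day 9 (17 UMIs) in trophectoderm-like cells, 7.60-fold higher (4.72 to 13.1, log2 2.64). In hypoblast-like cells it was at 6.99 CPM on day 12 (202 UMIs), against 19.9 CPM on day 9 (1493 UMIs), 2.85-fold lower (2.46 to 3.32, log2 -1.39). The order of the layers was therefore reversed: trophectoderm-like was 4.17-fold above hypoblast-like on day 12 (3.57 to 4.89) and 5.20-fold below it on day 9 (3.24 to 8.95). The difference between the 2 day ratios was not tested. HK2 lies at 68155656 to 68231187 on chromosome 3.

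The HK2 levels of the single clusters kept these directions. The 4 trophectoderm-like clusters of day 12 had 9.30 to 34.8 CPM of HK2, all above the 3.83 CPM of the single named cluster of day 9. Another day 9 cluster, of 82 cells, was closest to the trophectoderm, but was mixed and kept no name. It is outside all trophectoderm-like values given here. Upper glycolysis, HK2 included, summed to 0.0229% of its UMIs, against 0.0427% on day 12 and 0.0231% on day 9 in trophectoderm-like cells. Among the trophectoderm-like clusters of day 12, HK2 had a wide range. The lowest of these clusters held 277 cells and 1504766 UMIs in all. The 3 hypoblast-like clusters of day 12 had 2.84 to 7.26 CPM of HK2, all below the 13.5 to 24.6 CPM of the 6 clusters of day 9. At 2000 UMIs per cell, HK2 was seen in 5.14% of trophectoderm-like cells on day 12 and 0.919% on day 9, and in 1.60% and 3.68% of hypoblast-like cells. Free RNA of the day 9 embryo held HK2 at 19.3 CPM, above the level in its trophectoderm-like cells. HK1, the widely expressed hexokinase that binds mitochondria, was higher in day 12 trophectoderm, at 126 CPM on day 12, against 37.6 CPM on day 9 (3.34-fold, 2.86 to 3.93), while hypoblast-like cells had 60.3 and 67.1 CPM of HK1.

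Beyond hexokinase, no upper step of glycolysis was called in the embryo. GPI, which turns glucose 6-phosphate into fructose 6-phosphate, was at 137 CPM on day 12, against 68.0 CPM on day 9 in hypoblast-like cells, a plain ratio of 2.01 that misses the call once 1 CPM is added. PFKL, the liver-type phosphofructokinase, ALDOA, the main aldolase, and GPI in the trophectoderm had log2 ratios of 0.26 to 0.87 in both layers. PFKM, PFKP and the regulators PFKFB3 and PFKFB4, which set the level of the phosphofructokinase activator fructose 2,6-bisphosphate, stayed under 10 CPM in both layers on both days. Within that low range PFKFB3 had 4.43 CPM on day 12 (128 UMIs), against 0.427 CPM on day 9 (32 UMIs) in hypoblast-like cells. PFKFB3 gave 56.1% of the summed PFKFB3 and PFKFB4 UMIs there on day 12 (49.4% to 62.7%) and 8.10% on day 9 (5.61% to 11.2%).

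In the lower part of glycolysis, PGAM1, the phosphoglycerate mutase, was called higher in the trophectoderm. It was at 450 CPM on day 12, against 136 CPM on day 9 in trophectoderm-like cells (3.31-fold, 3.05 to 3.60, log2 1.72), and at 455 and 282 CPM in hypoblast-like cells (log2 0.69). The 2 layers, apart on day 9, thus had about the same PGAM1 level on day 12. GAPDH, which makes the NADH of glycolysis, was at 3045 CPM on day 12, against 1772 CPM on day 9 in trophectoderm-like cells and at 2240 and 1746 CPM in hypoblast-like cells, log2 ratios of 0.78 and 0.36. PGK1 had log2 ratios of 0.82 and 0.72 in the same classes. TPI1 and ENO1 were between -0.54 and 0.02 in both layers, and the row paired with PKM was at 0.73 in trophectoderm-like and -0.24 in hypoblast-like cells. ENO2, the enolase of neurons, BPGM and ALDOC stayed under 10 CPM in both.

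At the lactate step, LDHA, which reduces pyruvate to lactate, was under 2-fold in both layers, at 125 CPM on day 12, against 72.4 CPM on day 9 in trophectoderm-like cells and at 261 and 167 CPM in hypoblast-like cells. SLC16A1 (MCT1), which carries lactate, pyruvate and ketone bodies with a proton, differed by layer. In trophectoderm-like cells SLC16A1 was at 214 CPM on day 12, against 48.9 CPM on day 9 (4.37-fold, 3.82 to 5.03, log2 2.11). In hypoblast-like cells it was at 318 CPM on day 12, against 330 CPM on day 9 (log2 -0.06). The level in the trophectoderm was 6.76-fold below the hypoblast on day 9 (5.91 to 7.76) and 1.49-fold below it on day 12 (1.44 to 1.53). Free RNA of the day 9 embryo held SLC16A1 at 211 CPM, above its trophectoderm-like cells. With day 9 barcodes taken from 1000 UMIs, the SLC16A1 log2 ratio in trophectoderm-like cells was 1.22. The mixed day 9 cluster of 82 cells is outside these values too, and the 4 members of the lactate step summed to 0.0402% of its UMIs. Trophectoderm-like cells had less, 0.0340% on day 12 and 0.0123% on day 9. SLC16A3 (MCT4) and LDHB stayed under 10 CPM in both layers.

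**Figure D3:**
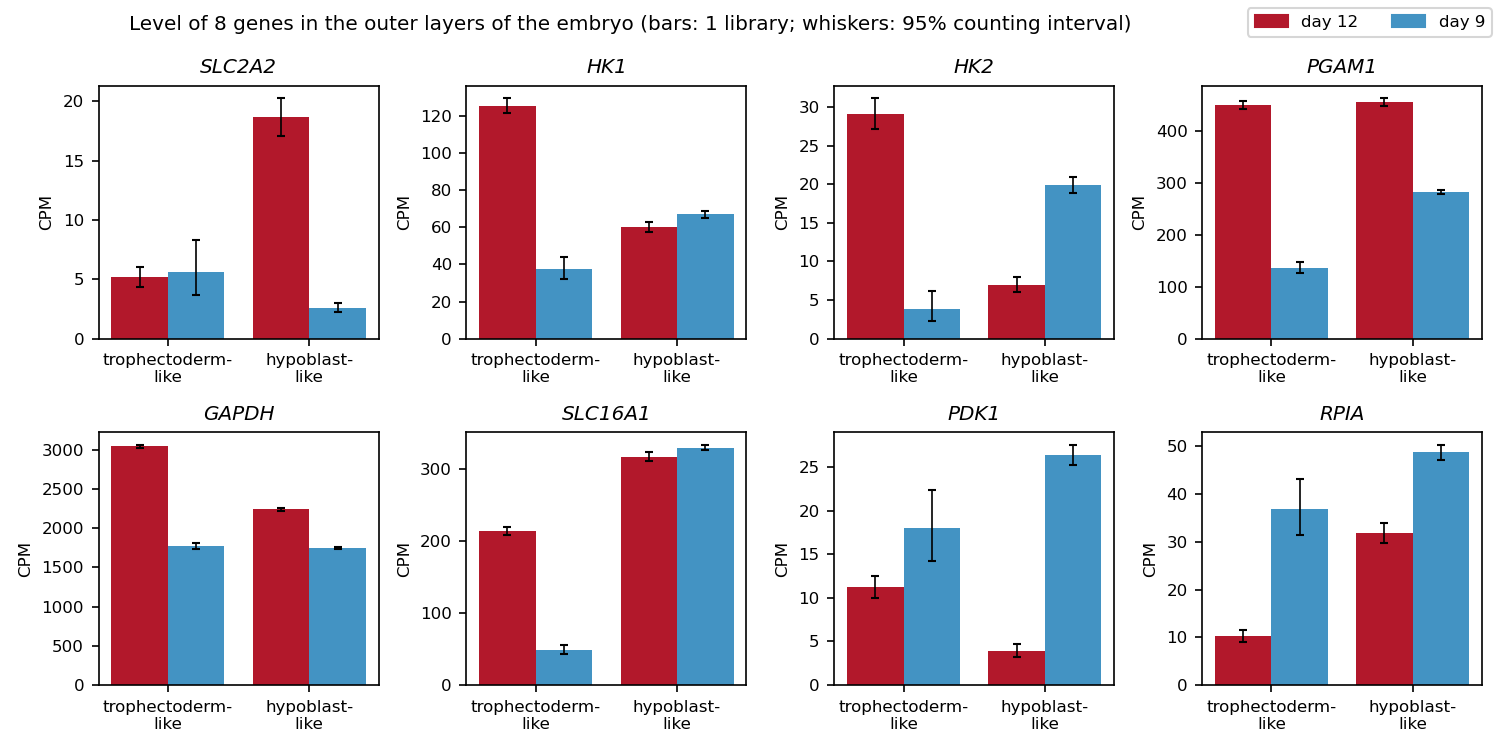
CPM of 8 members in trophectoderm-like and hypoblast-like cells, day 12 in red left of day 9 in blue. Bars are 1 library each and whiskers are 95% counting intervals. The taller HK2 bar is day 12 in the trophectoderm and day 9 in the hypoblast, PDK1 is low in day 12 hypoblast, and SLC16A1 is low in day 9 trophectoderm only.

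At the gate to the mitochondrion, PDK1, the kinase that inactivates pyruvate dehydrogenase, was lower in the day 12 hypoblast. It was at 3.91 CPM on day 12 (113 UMIs), against 26.4 CPM on day 9 (1980 UMIs) in hypoblast-like cells, 6.76-fold lower (5.59 to 8.25, log2 -2.48). In each of the 3 day 12 hypoblast-like clusters PDK1 was at 1.62 to 4.26 CPM, and in the 6 of day 9 at 20.5 to 31.4 CPM. Free RNA of the day 9 embryo held PDK1 at 33.4 CPM (45 UMIs), above its hypoblast-like cells. In trophectoderm-like cells PDK1 was at 11.3 CPM on day 12, against 18.0 CPM on day 9, under 2-fold. PDHB, a subunit of the first enzyme of the complex, was higher in trophectoderm-like cells, at 249 CPM on day 12, against 116 CPM on day 9 (2.15-fold, 1.96 to 2.35), a call lost as a mean over cells (log2 0.93). Its partner PDHA1 had 163 and 162 CPM there, and DLAT, the core enzyme, had a log2 ratio of 0.41. In hypoblast-like cells PDHB, PDHA1 and DLAT lay between -0.54 and 0.36. PDK1 lies at 78608394 to 78650958 on chromosome 15.

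Of the 4 pentose phosphate members, RPIA and TALDO1 were called lower in the trophectoderm, where 11.2% of all genes were. RPIA, which makes ribose 5-phosphate, was at 10.2 CPM on day 12, against 37.0 CPM on day 9 (3.63-fold lower, 2.98 to 4.41), and was at 6.43 to 11.1 CPM in each of the 4 day 12 clusters. TALDO1, the transaldolase of the return path to glycolysis, was at 322 CPM on day 12, against 655 CPM on day 9 (2.03-fold lower, 1.95 to 2.12), a call kept under 8 of 12 other settings and lost, for one, relative to the median gene (log2 -0.74). PGD, which makes NADPH, had log2 ratios of -0.52 in trophectoderm-like and -0.88 in hypoblast-like cells, and TKT, the transketolase, -0.08 and -0.54. Summed, the 4 pentose phosphate members made up 0.0738% of UMIs on day 12 and 0.113% on day 9 in trophectoderm-like cells, while lower glycolysis made up 0.451% and 0.320%. In hypoblast-like cells the same sums were 0.0969% and 0.104% for the pentose phosphate members and 0.377% and 0.320% for lower glycolysis. GAPDH was the largest member of the lower glycolysis sum in both layers. In trophectoderm-like cells it was at 3045 CPM on day 12, against 1772 CPM on day 9. PGAM1 and PGK1 were also higher there on day 12, and TPI1 and ENO1 were lower.

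Mitochondrial content in trophectoderm-like cells and genes induced by dissociation in both layers also differed between the days. Hypoblast-like cells had a median of 3.41% mitochondrial UMIs on day 12 and 3.47% on day 9. Trophectoderm-like cells had a median of 3.63% mitochondrial UMIs on day 12 and 0.547% on day 9, and markers of the hypoblast summed to 4504 and 5368 CPM in them, with 18 of 18 matched and 8 at 10 CPM or more on each day. A day 12 trophectoderm-like cluster of 277 cells had a median of 0.277% mitochondrial UMIs. In it HK1 was at 102, HK2 at 9.30, PGAM1 at 347, SLC16A1 at 99.7, PDHB at 248, TALDO1 at 479 and RPIA at 8.64 CPM. All 7 were on the same side of the day 9 level as in the whole class, but HK2 and SLC16A1 were well below the 29.1 and 214 CPM of the class. Of 11 genes induced by dissociation that were compared, 10 were called higher on day 12 in trophectoderm-like cells (27.8% of all genes, median log2 3.58). In hypoblast-like cells 10 of 11 were called higher (11% of all genes, median 1.86). The part of mitochondrial content and dissociation in the ratios was not tested.

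Set against the hypoblast within the same library, the trophectoderm had 4 of 21 members called higher (11.2% of all genes) and 3 lower (15.8% of all genes) on day 12. On day 9 none of 20 was called higher (9.27% of all genes), while 5 were lower (33.3% of all genes). On day 12 HK1, HK2, PDK1 and PDHB were higher in the trophectoderm, and SLC2A2, LDHA and RPIA lower. On day 9 HK2, PGAM1, LDHA, SLC16A1 and PGD were lower in the trophectoderm. LDHA was below the hypoblast on both days, 2.10-fold on day 12 (2.02 to 2.18) and 2.30-fold on day 9 (2.06 to 2.58). These comparisons share their cells with the day comparisons and are another view of the same values.

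In the endometrium, 24 members were compared in stromal-like cells (5614 on day 12, 5078 on day 9). GAPDH was called lower, 1 gene against 7.04% of all genes, and BPGM higher, 1 gene against 5.9% of all genes. The median log2 ratio was -0.07 for the members and -0.10 for all genes. Over all endometrial cells 1 of 23 members was called higher, PFKP (5.95% of all genes), and 1 lower, GAPDH (6.69% of all genes). GAPDH was at 227 CPM on day 12 (3029 UMIs), against 795 CPM on day 9 (11786 UMIs), 3.50-fold lower (3.36 to 3.64, log2 -1.80). It was 195 to 243 CPM in each of the 5 stromal-like clusters of day 12 and 749 to 848 CPM in each of the 3 of day 9. GAPDH lies at 64129678 to 64135194 on chromosome 5. It is among the glycolytic genes with processed copies in mammalian genomes, and the sources do not state how reads matching several copies were counted.

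The neighbouring steps of glycolysis did not follow GAPDH in the stroma. TPI1, the step before it, was at 246 CPM on day 12, against 287 CPM on day 9, PGK1, the step after, at 58.9 and 56.4 CPM, and ENO1 at 233 and 242 CPM. PGAM1, ENO2, LDHA and the row paired with PKM had log2 ratios between -0.37 and 0.14. Nor was GAPDH lower in all classes of the same libraries. It was at 877 CPM on day 12, against 806 CPM on day 9 in T or NK cell-like cells and at 856 and 589 CPM in macrophage or monocyte-like cells. In blood endothelial-like, smooth muscle or pericyte-like and epithelial cells its log2 ratios were -0.88, -0.92 and -0.96, and in the 77 B or plasma cell-like cells of each day -1.35. Thinned to 1000 UMIs, 19.5% of stromal-like cells had a GAPDH UMI on day 12 and 52.0% on day 9, against 51.6% and 48.9% of T or NK cell-like cells. In the stroma, summed lower glycolysis, GAPDH included, was 0.0847% of UMIs on day 12 and 0.147% on day 9, and upper glycolysis 0.0307% and 0.0296%.

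BPGM, which makes 2,3-bisphosphoglycerate and is best known from red cells, was at 11.2 CPM on day 12 (150 UMIs), against 2.02 CPM on day 9 (30 UMIs) in stromal-like cells, 5.56-fold higher (3.74 to 8.53). It was close to the minimum level, and with only cells of 2000 UMIs or more it was under it on both days. BPGM passed the minimum on day 12 alone here, in blood endothelial-like cells (10.9 CPM on day 12, 1.57 CPM on day 9, 48 and 2 UMIs) and in the epithelial clusters (11.3 and 2.15 CPM, 16 and 9 UMIs), so these calls were largely set by the minimum. Other calls also passed the minimum on the higher day alone. Among them were SLC2A2 and PDK1 in hypoblast-like cells, HK2 in both embryo layers, and SLC16A1 and ENO2 in the epithelial clusters. The other stromal members, among them HK1, the phosphofructokinases, ALDOA, SLC16A1, PDK1 and the pentose phosphate genes, had log2 ratios between -0.69 and 0.60. Members under 10 CPM on both days in the stroma were SLC2A2, HK2, PFKFB4, ALDOC, LDHB and SLC16A3. Stromal markers summed to 68478 CPM on day 12, against 55403 CPM on day 9 in these cells, with all 14 at 10 CPM or more.

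Among the classes compared, the endometrial epithelium held the largest differences of the members. Its clusters were compared by number, because 1 of them kept no name: day 12 clusters 9 (59 cells) and 10 (296 cells) together against day 9 clusters 7 (309 cells) and 13 (372 cells). Cluster 10 had 9 of 10 detected epithelial markers high, but S100A12, listed as a neutrophil marker, was among its 10 leading genes. In the epithelial clusters the 4 matched neutrophil markers of 7 summed to 1811 CPM on day 12, against 2.87 CPM on day 9. S100A12 alone had 1662 and 0.478 CPM and S100A8 144 and 0.239 CPM, while CSF3R, the neutrophil growth factor receptor, had 4.93 and 1.91 CPM and MMP9 was at 0 on day 12. The part of such cells in the ratios was not tested. Of 25 members compared, 6 were called higher, against 11.2% of all genes, and 2 lower, against 13.8% of all genes. The median log2 ratio was 0.27 for the members and -0.15 for all genes compared.

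SLC16A1 stood at 199 CPM in the epithelial clusters on day 12 (282 UMIs) and 6.46 CPM on day 9 (27 UMIs), 30.8-fold higher (20.7 to 47.5, log2 4.74). The difference lay in 1 cluster: SLC16A1 was at 224 CPM in day 12 cluster 10 and 17.1 CPM (3 UMIs) in day 12 cluster 9, against 8.83 CPM in day 9 cluster 7 and 3.33 CPM in day 9 cluster 13. Clusters 10 and 13 shared CLDN8 and FXYD3 among their leading genes, and between them SLC16A1 differed 67.4-fold (30.6 to 185). Clusters 9 and 7 shared CCL28, a mucosal chemokine, and there the ratio was 1.94 with an interval of 0.370 to 6.48. At 1000 UMIs per cell, 19.4% of the epithelial cells had an SLC16A1 UMI on day 12 and 0.734% on day 9, and 0.512% and 2.09% of smooth muscle or pericyte-like cells, the class with the lowest level on day 12. Without thinning the epithelial shares were 46.5% and 3.82% (median depths 3470 and 4179 UMIs) and those of the muscle class 2.05% and 4.18% (2220 and 1998 UMIs).

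No other endometrial class showed this in SLC16A1. Stromal-like cells had 27.4 CPM on day 12, against 26.3 CPM on day 9, and blood endothelial-like and smooth muscle or pericyte-like cells were called lower, at 15.4 and 34.6 CPM and at 7.98 and 18.6 CPM. SLC16A1 was therefore 7.23-fold higher in epithelial clusters than in stromal-like cells on day 12 (6.17 to 8.47) and 4.07-fold lower on day 9 (2.76 to 6.26). EMB, embigin, an accessory protein that brings monocarboxylate carriers to the cell surface in other mammals, is no member but was the largest ratio of the carrier list in the same cells. It was at 977 CPM on day 12 (1388 UMIs), against 20.3 CPM on day 9 (85 UMIs, log2 5.52), and at 1111 CPM in cluster 10 and 28.5 CPM in cluster 9. SLC16A1 spans 107510920 to 107547609 on chromosome 4.

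**Figure D4:**
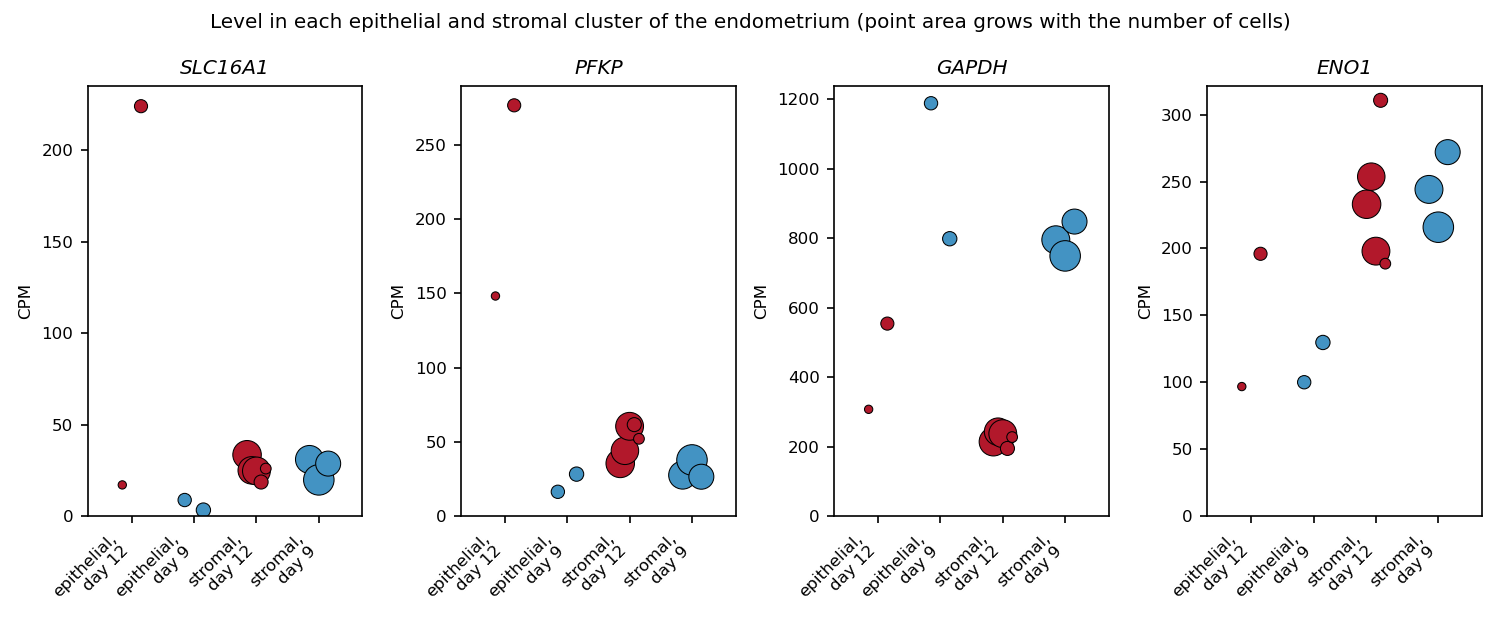
CPM of SLC16A1, PFKP, GAPDH and ENO1 in each epithelial and each stromal-like cluster, day 12 in red left of day 9 in blue. Each point is 1 cluster of 1 library, drawn larger where it holds more cells. SLC16A1 is high in 1 day 12 epithelial cluster, PFKP in both, GAPDH is lower in all 5 day 12 stromal-like clusters, and ENO1 overlaps between days in the stroma.

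The make-up of phosphofructokinase differed between the days in the epithelium. PFKP, the platelet-type gene, was at 261 CPM on day 12 (370 UMIs), against 21.5 CPM on day 9 (90 UMIs), 12.1-fold higher (9.59 to 15.4, log2 3.54). It was at 276 CPM in cluster 10 and 148 CPM in cluster 9 on day 12, against 16.4 CPM in cluster 7 and 28.3 CPM in cluster 13 on day 9, so both day 12 clusters stood above both of day 9. PFKL was at 35.2 and 51.4 CPM and PFKM at 9.15 and 11.0 CPM. PFKP therefore gave 85.5% of the summed UMIs of the 3 genes on day 12 (81.8% to 88.6%) and 25.6% on day 9 (21.2% to 30.5%). At 1000 UMIs per cell, 21.7% of epithelial cells had a PFKP UMI on day 12 and 1.47% on day 9, against 5.88% and 4.70% of smooth muscle or pericyte-like cells. PFKP lies at 67022652 to 67082336 on chromosome 10.

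The share of PFKP separated the tissues as well. It was 0.127% on day 12 and 0.738% on day 9 in trophectoderm-like cells and 0.282% and 0.156% in hypoblast-like cells, where PFKL gave 89.3% to 96.3%. In T or NK cell-like cells PFKP gave 70.1% on day 12 and 69.3% on day 9, and in stromal-like cells 46.9% and 27.2%. Macrophage or monocyte-like cells had PFKP at 54.9 CPM on day 12, against 16.6 CPM on day 9 (3.30-fold, 2.18 to 5.15). In all 6 endometrial classes in which PFKP was compared, its log2 ratio was above 0, and 2 of them were called higher. The genes differ in how their ends are captured, so a share is set between classes and days and does not give a ratio of mRNAs.

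**Figure D5:**
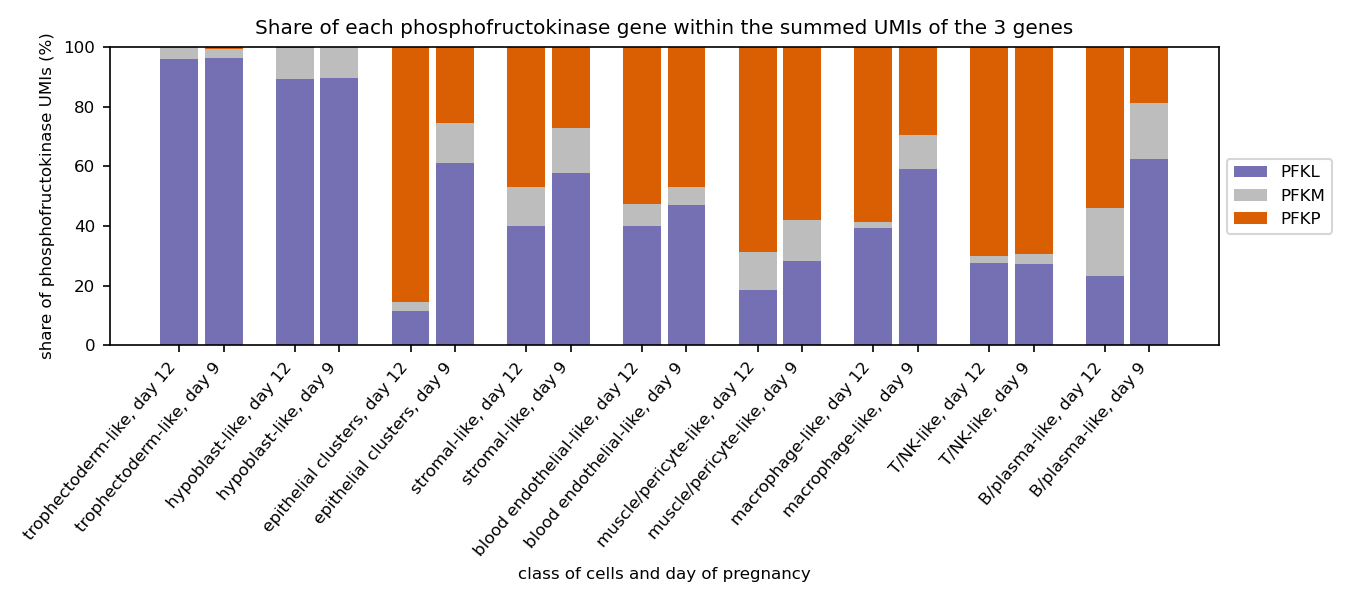
Share of PFKL, PFKM and PFKP in the summed UMIs of the 3 phosphofructokinase genes, by class, day 12 left of day 9. PFKL fills most of each embryo bar, and PFKP gives 85.5% in epithelial clusters on day 12 and 25.6% on day 9.

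The other epithelial calls fell on both branches of glucose use. PFKFB3, the activating bifunctional enzyme, was at 119 CPM on day 12, against 38.0 CPM on day 9 (3.13-fold, 2.51 to 3.91), with 120 CPM in cluster 9 and 119 CPM in cluster 10 on day 12 and 50.5 CPM in cluster 7 and 21.6 CPM in cluster 13 on day 9. ALDOA was at 158 and 61.0 CPM (2.59-fold, 2.15 to 3.11). PGD was at 79.6 CPM on day 12, against 22.2 CPM on day 9 (3.58-fold, 2.69 to 4.76), and lay at 86.8 CPM in cluster 10 and 28.5 CPM in cluster 9. RPIA was lower, at 26.1 CPM on day 12, against 82.7 CPM on day 9 (3.18-fold, 2.26 to 4.59). Most of the day 9 RPIA came from cluster 7, at 120 CPM, and cluster 13 had 33.3 CPM, near the 24.9 CPM of day 12 cluster 10. ENO2 was at 7.04 and 15.8 CPM (10 and 66 UMIs), a call that was lost when cells were held to 10% mitochondrial UMIs.

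HK1 in the epithelial clusters was at 84.5 CPM on day 12, against 41.9 CPM on day 9, a plain ratio of 2.02 that misses the call once 1 CPM is added, and HK2 at 22.5 and 14.1 CPM. TPI1, ENO1 and LDHA had log2 ratios of 0.53 to 0.71, whereas GAPDH, at 524 and 1020.5 CPM, and the row paired with PKM, at 178 and 336 CPM, had -0.96 and -0.91. GPI, PGK1, PGAM1, PDK1, PDHA1, PDHB, DLAT, TALDO1 and TKT lay between -0.39 and 0.30. SLC2A2, PFKFB4, ALDOC, LDHB and SLC16A3 stayed under 10 CPM. Summed upper glycolysis was 0.0743% of UMIs on day 12 and 0.0309% on day 9, and lower glycolysis, GAPDH included, 0.114% and 0.147%. Against stromal-like cells of the same library, 9 of 25 members were called higher in the epithelial clusters on day 12 (19.6% of all genes). On day 9 it was 2 of 24 (16.1% of all genes). Lower calls were 1 on day 12 (21.8%) and 3 on day 9 (16.2%). Day 12 cluster 10 held 296 of the 355 epithelial cells, and clusters 7 and 13 were of like size on day 9, so the mix of clusters differed between the days. Set against day 9 cluster 13, day 12 cluster 10 had 6 of 25 members called higher (12.4% of all genes) and none lower (13.6%). Against day 9 cluster 7 it had 7 of 25 higher (15.8%) and 3 lower (18.9%). Day 12 cluster 9, with few UMIs per gene, had 3 of 24 members higher (19.8%) and 7 lower (20%) than day 9 cluster 13. It had 2 of 24 higher (16.8%) and 8 lower (18.9%) than day 9 cluster 7.

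The remaining endometrial classes held few calls. Blood endothelial-like cells had 1 of 23 members called higher (3.69% of all genes) and 2 lower (6.36%), BPGM against SLC16A1 and SLC16A3. Smooth muscle or pericyte-like cells had 1 of 24 members higher (6.9%) and 1 lower (6.18%), PFKFB4 and SLC16A1, each on 24 UMIs or fewer a day. T or NK cell-like cells had 1 of 23 members higher (6.89%) and 2 lower (8.63%), which were ALDOA against PFKFB4 and PDK1. PDK1 was at 31.1 CPM on day 12, against 70.5 CPM on day 9. The mixed day 12 cluster of 358 cells is outside the T or NK class, and its part in these ratios was not tested. B or plasma cell-like cells had 3 of 15 members higher (8.68%) and 2 lower (14.1%) on few UMIs. In macrophage or monocyte-like cells 2 were higher (5.69%), PFKP and ALDOA, and none was lower (8.26%), and 17 of 21 members had a log2 ratio above 0 (median 0.54, all genes -0.04).

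Taken gene by gene over the 9 classes compared, ALDOA and LDHA had ratios above 0 in 9 of 9 classes. ALDOA was called higher in 4 of them, the epithelial clusters and the macrophage, T or NK and B or plasma classes. PDHB was above 0 in all 8 classes in which it reached the minimum. With the mixed cluster of 358 cells left out, T or NK cell-like cells had the highest LDHA among the endometrial classes compared. It was at 444 CPM on day 12, against 283 CPM on day 9, and ENO1 was highest there as well, at 914 and 659 CPM. SLC16A3, the carrier known for lactate export from glycolytic cells, was highest there too, at 22.6 and 28.2 CPM. PFKFB3 was at 90.2 and 152 CPM in macrophage or monocyte-like cells, and ENO2 at 144 and 135 CPM in ciliated epithelial-like cells (43 and 90 cells), far above its level in all other classes. ALDOC stayed at or under 0.942 CPM in every named class of the 4 libraries, and LDHA gave 92.6% or more of the summed LDHA and LDHB UMIs in the 4 main classes.

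The rest of the pathway was followed in lists of other genes, whose counts were not tested against the shares of all genes. Those shares were 27.8% higher and 11.2% lower in trophectoderm-like, 11% and 8.97% in hypoblast-like, 5.9% and 7.04% in stromal-like and 11.2% and 13.8% in epithelial cells. Of other glycolysis and pentose phosphate genes, 3 of 8 were called higher and 1 lower in trophectoderm-like cells, and 3 and 1 of 11 in hypoblast-like cells. ENO3, the muscle enolase, was at 198 CPM on day 12, against 9.92 CPM on day 9 in the trophectoderm and at 23.5 and 5.89 CPM in the hypoblast. PGLS, the lactonase of the pentose phosphate branch, was at 130 and 252 CPM in the trophectoderm (log2 -0.95). In the epithelial clusters 1 of 10 of them was higher and none lower, and in stromal-like cells 1 of 10 was higher and 1 lower. Of other carriers and their partners, 1 of 4 was higher and 1 lower in trophectoderm-like cells, 2 of 4 higher and none lower in hypoblast-like cells, and 2 of 7 higher and 1 lower in both stromal-like and epithelial cells. TXNIP, a glucose-responsive inhibitor of uptake, was at 36.4 CPM on day 12, against 2.51 CPM on day 9 in hypoblast-like cells and at 439 and 141 CPM in stromal-like cells. In the list of pyruvate dehydrogenase and its regulators, 1 of 5 genes was higher and none lower in trophectoderm-like, 1 of 5 higher and 1 lower in hypoblast-like, 1 of 8 higher and none lower in stromal-like and 2 of 7 higher and 1 lower in epithelial cells. PDK4 was at 113 and 21.1 CPM in stromal-like cells and at 28.9 and 4.78 CPM in the epithelial clusters, while PDP2, the opposing phosphatase, was at 4.63 and 20.1 CPM in the hypoblast. Of genes of glucose synthesis, glycogen and polyols, 2 of 10 were higher and 3 lower in trophectoderm-like, 2 of 11 higher and none lower in hypoblast-like, 1 of 13 higher and 1 lower in stromal-like and 2 of 14 higher and 3 lower in epithelial cells. AKR1B1, aldose reductase, was at 1110 and 399 CPM in the trophectoderm and GYG1, glycogenin, at 5.82 and 61.1 CPM.

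Genes of mitochondrial oxidation were called lower more often than all genes (11.2%) in trophectoderm-like cells, with no test of the difference. In trophectoderm-like cells 9 of 29 nuclear genes of the respiratory chain were called lower and none higher (median log2 -0.88, against -0.29 for the median gene at 50 CPM), and of 19 genes of the tricarboxylic acid cycle 4 were lower and 2 higher (median -0.74). In hypoblast-like cells 1 of 29 respiratory chain and 1 of 19 cycle genes were lower (8.97% of all genes) and none higher. The same counts held in stromal-like cells (7.04% of all genes), where 28 of the 29 were below 0 (median -0.45). In the epithelial clusters none of the 29 was called (median 0.06), and 4 of 19 cycle genes were lower (13.8% of all genes) with a median of 0.08 over the 19. OGDH, which acts on 2-oxoglutarate within the cycle, was the largest of these, at 130 CPM on day 12, against 1008 CPM on day 9. On day 9 cluster 7 had 1530 CPM and cluster 13 319 CPM. Hypoxia response genes outside the pathway were called higher in 11 of 15 in trophectoderm-like cells (median log2 1.72), 7 of 18 in hypoblast-like, 3 of 22 in stromal-like and 5 of 24 in epithelial cells, and lower in 0, 1, 0 and 2. Over all genes, 27.8%, 11%, 5.9% and 11.2% were called higher in the same 4 classes. EPAS1, a hypoxia-inducible factor, was at 150 CPM on day 12, against 7.21 CPM on day 9 in the trophectoderm and at 351 and 56.1 CPM in the hypoblast. Genes induced by dissociation were called higher in 2 of 12 in both stromal-like and epithelial cells, with median log2 ratios of 0.53 and 0.56, and their part in these lists was not tested.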

How the data were processed

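RNA of single cells was measured in 4 libraries of pig embryo and endometrium, from 12 and 9 days of pregnancy. The files hold raw counts of UMIs, which the authors deposited for each gene and barcode. The submitters' processing notes name Cell Ranger 6.1.2 and Sscrofa11.1. Per the file headers, Cell Ranger 4 wrote the day 9 embryo and 6.1.2 the others. The labels' protocols name a droplet kit that reads the 3′ end.

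Barcodes with 1000 UMIs, 500 genes and up to 20% of UMIs from 13 mitochondrial genes were kept. In the day 9 embryo, deposited with low barcodes, a limit of 2759.47 UMIs was set from the top 3000 totals and left 7011. Scrublet's method in scanpy 1.11.5 found 93 doublets on day 12 and 1 on day 9 in the embryo and 0 in both endometrial libraries, and doublets are taken as not removed outside the first. Libraries were clustered separately on 2000 variable genes without the members (30 components, 15 neighbours, Leiden resolution 0.6). Names came from 173 of 195 marker genes: at least 3 had to reach 0.5 of their top cluster level. A cluster kept no name where markers of another class led it, where it was mixed, or where it was shallow without an own marker leading.

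Summed counts of a class were scaled to CPM here. Intervals are exact Poisson for levels and exact binomial for ratios and shares, at 95%. Groups of 1 library allow no test. A call is a fold of 2 or more with 1 CPM added, for genes with 10 CPM or more on a day. All members are accounted for in each of the 4 main classes, and list genes named are up to 4 per list and class with the largest ratios at 20 CPM or more. The members and the lists were chosen with earlier results of these data known. Ratios were also computed on simulated data with known folds. Positions are RefSeq's for Sscrofa11.1, and 688 symbols were added from the reference table. A gene of the lists is not reported here.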

Additional observations from a re-analysis of the deposited data

Results flagged for a closer look

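HK2 had a log2 ratio of day 12 over day 9 of 2.64 in trophectoderm-like cells and of -1.39 in hypoblast-like cells, so the layers of the embryo moved in opposite directions. The difference between the ratios was not tested, since each day is 1 library. The day 9 trophectoderm-like value rests on 17 UMIs. With no group of 4 or more samples, no check for samples far from the others could be made.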

How the results depend on the processing

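Each count of called members and 90 member ratios were recomputed under 10 to 12 other settings, 1 of them chosen after seeing the data. No member ratio changed direction past the fold; 868 of 961 ratios moved by less than the counting interval and 93 by more. Relative to the median gene, members called higher were 3 in hypoblast-like, 9 in trophectoderm-like and 4 in all embryo cells (1, 5 and 1 on the CPM scale), and those lower were 1 in trophectoderm-like cells, against 2. That count was also 1 with day 9 barcodes from 1000 UMIs, as a mean over cells and without mitochondrial UMIs in the total. With no minimum level, higher calls were 2 in hypoblast-like, all embryo and all endometrium cells, and lower calls 2 in stromal-like cells, against 1 each. Higher calls were 2 with 0.1 CPM added in hypoblast-like cells, 2 as a mean over cells in all embryo cells, and 0 with 2000 UMIs per cell in stromal-like cells. The lower calls in the epithelial clusters were 1, against 2, at 10% mitochondrial UMIs. Among called members, the SLC16A1 log2 ratio ranged from 4.72 to 4.97 in the epithelial clusters and from 1.22 to 2.39 in trophectoderm-like cells, and HK2 from 2.05 to 2.89 there. GAPDH in the stroma ranged from -1.83 to -1.72. No paired analysis was possible because each group has 1 library. Intervals cover counting error only, so variation between animals is not in any of them.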
